A study of Homo sapiens with 12 samples.

Results

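A group of 9 genes of actin stress fibres and myosin phosphatase regulation was followed in PC3E and GS689.Li cells: MPRIP, PPP1R12A, LIMCH1, LASP1, ZYX, PDLIM5, PDLIM7, LIMA1 and PXN. They were chosen by name, and an exon event of the deposited tables was given to one of them when strand, exon length and the lengths of the introns on either side fitted that gene in GENCODE release 29. All 9 members had events in RNA-seq, among 12978 genes with a named event in either assay. In RNA-seq they held 180 of 114816 events, over 103 distinct exons. In RASL-seq, a targeted assay that ligates probe pairs across splice junctions and counts the products, 4 of the 9 had events: 3 in MPRIP, 3 in LIMCH1, 1 in LASP1 and 1 in ZYX. The RASL-seq table lists events of the plus strand only. PPP1R12A, PDLIM7, LIMA1 and PXN lie on the minus strand, and PDLIM5, on the plus strand, had no event there.

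Both lines are human prostate cancer lines labelled wild type, and both were kept in DMEM/F12 with serum, non-essential amino acids and G418, then plated and harvested after overnight incubation. As background, both derive from the PC3 line, PC3E being epithelial in character and GS689.Li, called GS689 in the library names, more mesenchymal and invasive. Each assay had 3 libraries per line, and the labels do not say that replicates came from separate cultures, so the p-values refer to variation among libraries that may be technical replicates. The RNA-seq header numbers 2 sets of 3 libraries without naming a line, so every comparison of GS689 with PC3E below comes from RASL-seq, and RNA-seq values are given by library.

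Stress fibres are bundles of actin filaments and non-muscle myosin II that end at focal adhesions. Phosphorylation of the myosin light chain drives their contraction, and myosin phosphatase removes it. PPP1R12A (MYPT1) is the targeting subunit of that phosphatase, and MPRIP binds actin filaments, RhoA and MYPT1. LIM domains are paired zinc fingers that bind other proteins, and they place zyxin (ZYX), paxillin (PXN), LASP1, the Enigma family proteins PDLIM5 and PDLIM7, and EPLIN (LIMA1) on filaments or adhesions. LIMCH1 carries a calponin homology and a LIM domain and binds non-muscle myosin II.

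The exons on which the results turn are shown first, 5′ to 3′ on the coding strand, from GENCODE release 29 transcripts, with positions on hg19 as in the deposited tables. The first set holds MPRIP and LIMCH1 cassette exons that both assays counted, leaving out the 114 nt exon of MPRIP and the 71 nt exon of LIMCH1. MPRIP has a 120 nt exon at chr17:17078607-17078726, coding in the 5 of 7 spanning coding transcripts that hold it, and a 63 nt exon at chr17:17083921-17083983, held by 2 of 9, in which the reading frame ends. Of the latter only the coding part and its stop codon are shown, the stop codon in capitals. LIMCH1 has a 36 nt exon at chr4:41640949-41640984 (8 of 13 coding transcripts) and a 31 nt exon at chr4:41605892-41605922 (10 of 11).
MPRIP 120 nt exon: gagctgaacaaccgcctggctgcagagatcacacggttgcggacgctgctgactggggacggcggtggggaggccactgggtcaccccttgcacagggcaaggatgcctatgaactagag
MPRIP 63 nt exon, coding part: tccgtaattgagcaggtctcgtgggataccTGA
LIMCH1 36 nt exon: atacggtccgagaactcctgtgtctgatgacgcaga
LIMCH1 31 nt exon: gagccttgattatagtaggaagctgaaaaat

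The second set holds exons counted by RNA-seq alone. PPP1R12A (minus strand) has a 168 nt exon at chr12:80199946-80200113 with a second acceptor 36 nt inside it, and the capitals mark the bases that the inner acceptor leaves out. Its 31 nt exon at chr12:80173101-80173131 lies near the end of the coding region; as background, leaving it out yields the isoform with a C-terminal leucine zipper. LIMCH1 has an 84 nt exon at chr4:41678396-41678479 with a second acceptor 3 nt inside, again in capitals. PDLIM7 (minus strand) has a 17 nt exon at chr5:176918405-176918421 and a 119 nt exon at chr5:176918808-176918926, whose lengths both leave a remainder of 2 when divided by 3. PXN (minus strand) has a 102 nt exon at chr12:120653363-120653464, present in 6 of 9 spanning coding transcripts.
PPP1R12A 168 nt exon: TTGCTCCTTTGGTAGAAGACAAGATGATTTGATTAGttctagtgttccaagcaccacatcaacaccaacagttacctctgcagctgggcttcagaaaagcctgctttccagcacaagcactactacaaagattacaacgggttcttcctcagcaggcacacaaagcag
PPP1R12A 31 nt exon: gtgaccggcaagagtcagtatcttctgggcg
LIMCH1 84 nt exon: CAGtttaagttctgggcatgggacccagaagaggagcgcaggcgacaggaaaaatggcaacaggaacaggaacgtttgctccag
PDLIM7 17 nt exon: gtgcagacccctgacaa
PDLIM7 119 nt exon: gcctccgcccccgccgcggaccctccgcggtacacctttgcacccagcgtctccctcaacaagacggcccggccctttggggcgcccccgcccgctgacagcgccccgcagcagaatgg
PXN 102 nt exon: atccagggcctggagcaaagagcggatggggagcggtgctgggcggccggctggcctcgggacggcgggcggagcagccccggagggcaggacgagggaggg

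RASL-seq libraries held 615758 to 954120 counts. PC3E replicate 2 had inclusion shares farther from those of its 2 line mates (chi-square over degrees of freedom 4.79 and 3.52) than they were from each other (1.90), so results are also given without it where that matters. The epithelial label of PC3E was checked on the markers with events: all 4 tested epithelial genes (LSR, OCLN, LLGL2, SPINT2) were lower in GS689, with summed levels of 829 to 1217 CPM (each library scaled to the same total) in PC3E and 334 to 433 in GS689, and VIM was higher, at 169 to 214 against 4179 to 4399 CPM. No prostate luminal, smooth muscle, haematopoietic or endothelial marker had a RASL-seq event; in RNA-seq the luminal gene TMPRSS2 had 97 to 496 counts per library the leukocyte gene PTPRC 0 to 14 and the endothelial gene KDR 5 to 1073; their part in the results was not tested.

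The first question was whether the genes themselves were at different levels in the lines. All 4 members that RASL-seq measured differed, in both directions. MPRIP and LIMCH1 were lower in GS689, whereas ZYX and LASP1 were higher. In RNA from bulk cultures, fewer cells of a type and less RNA per cell cannot be told apart. Across all genes tested 29.8% of 1317 totals passed an adjusted p of 0.05, 16.4% higher and 13.4% lower in GS689, so that a change of level alone was common between these lines. Over all genes the median log2 change was -0.0049 and the median absolute log2 change 0.37; over the 4 members the latter was 1.31.

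MPRIP, the myosin phosphatase partner, made up 0.83 to 2.92% of a library's RASL-seq counts. Its summed level was 27670, 25035 and 29888 CPM in the PC3E replicates and 10798, 8519 and 11767 CPM in the GS689 replicates. The groups did not overlap. The level was 2.68-fold lower in GS689 (log2 change -1.42, SE 0.13, adjusted p = 2.05e-05, limma-voom), and the log2 change was -1.51 without PC3E replicate 2. The fall was seen in each of its 3 events: sums of both forms were 2.82 times as high in PC3E for the 120 nt exon, 2.35 times for the 63 nt exon and 2.25 times for the 114 nt exon.

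LIMCH1, which binds non-muscle myosin II, showed the largest change among the 4. Its levels were 761, 1868 and 1397 CPM in PC3E and 127, 94.4 and 180 CPM in GS689, so the lowest PC3E library lay above every GS689 library. The log2 change was -3.30 (SE 0.35, adjusted p = 5.79e-05), or 9.87-fold lower in GS689. PC3E replicate 2 was the highest of its group, and without it the log2 change was -3.04. The 3 LIMCH1 events fell alike, with PC3E sums 9.25, 11.2 and 8.64 times those of GS689 for the 71, 31 and 36 nt exons.

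ZYX, the focal adhesion protein zyxin, was higher in GS689. Its levels were 1821, 3716 and 2287 CPM in PC3E against 4258, 8234 and 5297 CPM in GS689. Replicate 2 was the highest library in both lines, and the groups did not overlap. The log2 change was 1.20 (SE 0.27, adjusted p = 0.00692), or 2.29-fold, and 1.46 without PC3E replicate 2.

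LASP1, a LIM and SH3 domain protein that binds actin, was the least changed. It stood at 2131, 2431 and 3047 CPM in PC3E and at 3108, 3320 and 3873 CPM in GS689. The highest PC3E library was just below the lowest GS689 library. The log2 change was 0.44 (SE 0.15, adjusted p = 0.0453), or 1.36-fold. The call was lost when PC3E replicate 1 or 2, or any 1 GS689 replicate, was left out (adjusted p 0.0669 to 0.163), and under 3 of the other settings. The totals of all 4 members were without overlap between lines, as were 46.4% of all totals.

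**Figure D1:**
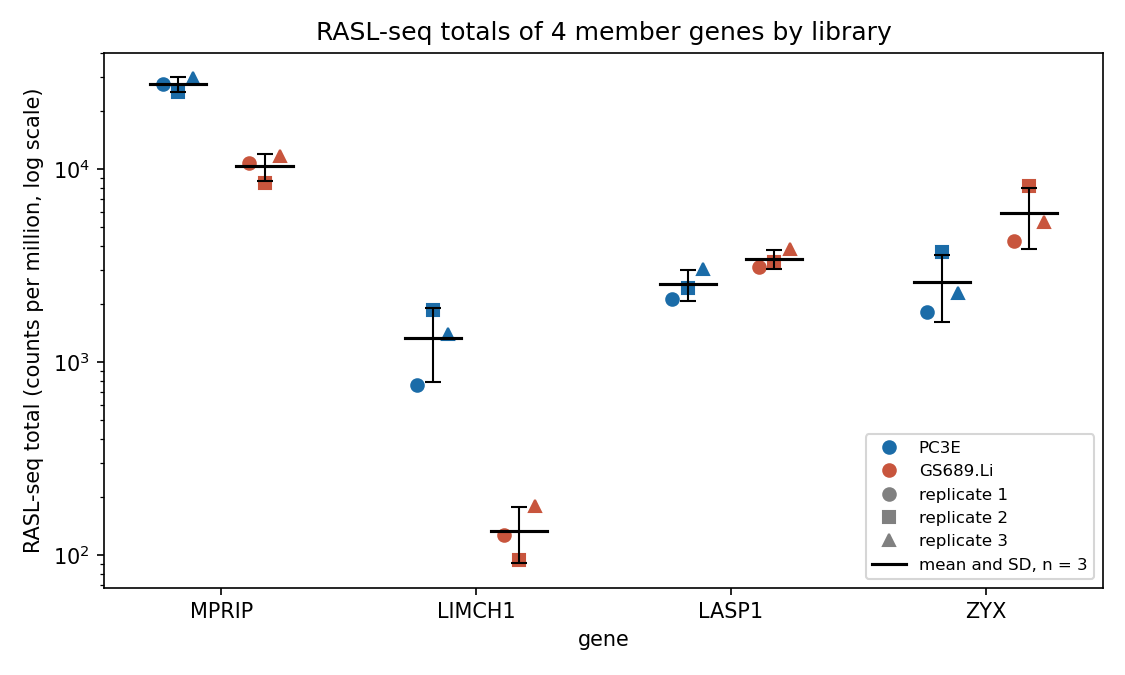
RASL-seq totals of MPRIP, LIMCH1, LASP1 and ZYX in CPM (log axis), with PC3E in blue and GS689.Li in red, 1 symbol per replicate, and black bars for the mean and SD of 3 libraries. MPRIP and LIMCH1 are lower and ZYX and LASP1 higher in GS689.Li, and the LASP1 groups lie closest, at 3047 and 3108 CPM.

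The genes whose levels ran most like each member over the 6 RASL-seq libraries were taken by the smallest root mean square difference of centred log2 CPM. They were STAC (0.12), SH2D4A (0.17) and DMTN (0.17) for MPRIP, and ARTN (0.19), NOSTRIN (0.33) and ACKR2 (0.41) for LIMCH1. For LASP1 they were MFF (0.07), ARID1A (0.10) and RALY (0.13), and for ZYX they were C1QTNF1 (0.20), DNTTIP1 (0.21) and MSI2 (0.23). These are values over 6 libraries, and the change between the lines makes up most of each profile.

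The second question was whether exon use in these genes differed between the lines. Of the 8 RASL-seq events of members, 5 passed the filter on counts and 0 were called, where a call needed an adjusted p under 0.05 and a change of at least 5 percentage points (quasi-binomial model with limma-moderated dispersions). Over all tested events 5.87% were called: inclusion was higher in GS689 for 2.22% and lower for 3.65%. One of the 5 had an unadjusted p under 0.05, the MPRIP 120 nt exon.

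Inclusion of the MPRIP 120 nt exon was 65.1, 54.8 and 61.4% in PC3E and 71.1, 68.1 and 74.8% in GS689. All GS689 libraries were above all PC3E libraries, which was also so, in either direction, for 23.6% of all events tested. The means were 60.4% ± 5.22 and 71.3% ± 3.35 (SD, n = 3), a difference of 10.9 percentage points (SE 3.58). It did not pass in the quasi-binomial model with line alone (unadjusted p = 0.0450, adjusted p = 0.235). A fit with replicate number as a block, given further below, did call it. Without PC3E replicate 1 the difference was 13.2 points and passed (adjusted p = 0.0347); without PC3E replicate 2, which had the lowest inclusion, it was 8.10 points and did not (adjusted p = 0.0938). Libraries held 4969 to 19762 counts of this event, and the moderated dispersion, the variance between libraries over that of counting alone, was 84.8.

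The MPRIP 63 nt exon, which ends the reading frame early, was included in 14.4, 18.4 and 14.9% of counts in PC3E and in 13.2, 16.96 and 14.8% in GS689. The lines overlapped, and replicate 2 was the highest in each. The difference was -0.91 points (SE 1.69, adjusted p = 0.785), and its sign turned without PC3E replicate 2 (0.36 points). The 114 nt exon of MPRIP was almost always included, at 99.8% ± 0.0313 and 99.8% ± 0.155. The level of MPRIP fell while mean inclusion of 2 of its 3 exons differed by less than 1 point.

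LIMCH1 exons were close to complete inclusion in RASL-seq, on few counts in GS689. The 31 nt exon was included at 98.8% ± 1.34 in PC3E and 97.1% ± 3.32 in GS689 (adjusted p = 0.577), where GS689 libraries held 33 to 46 counts. The 71 nt exon, not tested because its skipped form had 7 counts in all, stood at 99.6% ± 0.329 and 99.5% ± 0.902. The 36 nt exon had 17, 32 and 25 counts in PC3E and 5, 3 and 1 in GS689, with 5 of 74 and 1 of 9 counts skipping it, too few for a comparison at this depth.

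The 93 nt exon of ZYX was included at 99.7% ± 0.217 in PC3E and 99.6% ± 0.00735 in GS689 (adjusted p = 0.595). The 170 nt exon of LASP1, found in 1 annotated coding transcript, was nearly always skipped: its inclusion counts were 2, 1 and 3 in PC3E and 2, 0 and 0 in GS689. The libraries at 0 held 2744 and 2390 counts, which allow an inclusion of up to 0.109 and 0.126%, for counting error only. The levels of ZYX and LASP1 rose, while the ZYX exon did not pass and the LASP1 exon was included too rarely to be tested.

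**Figure D2:**
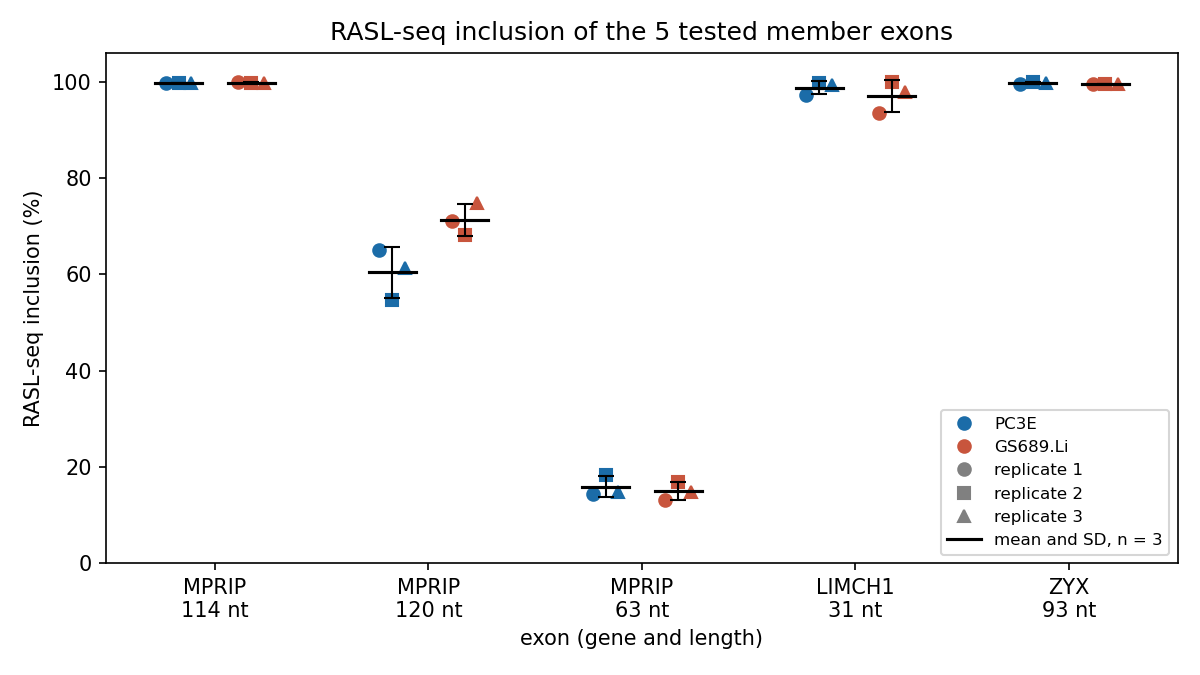
RASL-seq inclusion in percent of the 5 tested exons of member genes, PC3E in blue and GS689.Li in red, 1 symbol per replicate, with mean and SD of 3 libraries. Only for the MPRIP 120 nt exon are the 3 GS689.Li libraries all above the 3 PC3E libraries, and that difference had an adjusted p of 0.235.

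RNA-seq covered all 9 genes. Since the summed event counts of a gene depend on how many events it has, levels were compared between genes as counts per base of effective length, taken as the median over events included at over 95% in all libraries. By this median MPRIP was highest (17.7 to 57.6, median 30.2), followed by ZYX (7.13 to 36.6, median 17.2) and LASP1 (8.50 to 14.6, median 10.7). PDLIM7 (3.77 to 5.84), LIMA1 (1.92 to 6.02), PDLIM5 (1.84 to 4.96), PXN (0.861 to 3.20) and PPP1R12A (1.30 to 2.76) came next in order of their medians, and LIMCH1 was lowest (0.0990 to 1.79, median 0.564). Among neighbours in that order, LASP1 and PDLIM7 alone had ranges over libraries that did not overlap. The place of PXN depended on the events pooled, since 4 of its 7 are counted between seldom used flanks. By the most counted event of each gene, a choice made after the data were seen, PXN came second to MPRIP, at 26.9 to 88.6 (median 53.5) against 30.1 to 121 (median 60.4), and the ranges overlapped; the other 7 genes followed in the same order as before. Summed per gene and expressed as CPM of the table, LIMCH1 spread most, from 3.98 to 69.5, or 17.5-fold between the lowest and the highest library. ZYX spread 5.20-fold and the other 7 genes 1.78-fold to 3.24-fold.

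**Figure D3:**
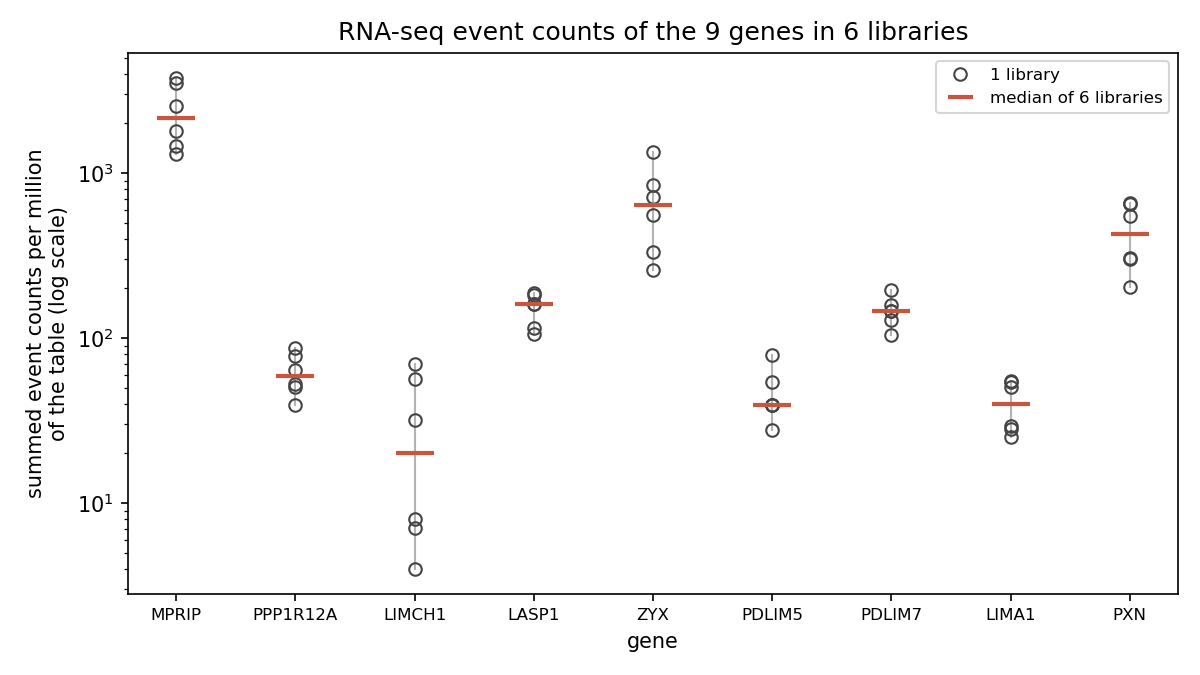
Summed inclusion and skipping counts of the 9 genes in RNA-seq, as CPM of the table's counts (log axis), 1 circle per library and a bar at the median of 6 libraries. LIMCH1 spreads most, from 3.98 to 69.5, and the number of events differs between genes, so heights are not comparable across genes.

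Most member events were constant. Of the 180 events 166 averaged 20 or more counts per library, and of these 109 were included at over 95% in all 6 libraries, 21 at under 5% in all, and 36 (21.7%) lay between 5 and 95% in at least 1 library, against 28.8% over all events of the table. PXN held 13 of the 36, LIMCH1 8, PDLIM7 6, MPRIP 4, PPP1R12A 4 and ZYX 1, while LASP1, PDLIM5 and LIMA1 held none. Of the 26 distinct exons behind them 16 (61.5%) had a length divisible by 3, against 18 of 61 exons (29.5%) that were included at over 95% in all libraries, and 6 of 15 included at under 5%. Exon versions that share a splice junction are counted in part by the same reads, so the events are not independent. A version can also read at over 95% through junctions of other exons. The non-coding 438 nt version in ZYX starts where the 200 nt exon starts and ends where the 93 nt exon ends. Such versions are among the 61, so that class does not show that each was used.

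In MPRIP the 120 and 63 nt exons varied in RNA-seq as well. Length-corrected inclusion of the 120 nt exon was 87.5, 82.9 and 85.2% in the first set of libraries and 90.9, 89.1 and 92.7% in the second. All 6 values were above the highest RASL-seq value of 74.8%. The 63 nt exon stood at 41.9, 46.0, 44.1, 36.8, 44.6 and 43.6% in the same order, all above the 13.2 to 18.4% of RASL-seq. The assays thus differed by more than the spread within either in the level of both exons. RASL-seq shares come from ligated probe pairs and carry no correction for probe or length, so their level was not read as a share of transcripts; the part of probe efficiency in the gap was not tested.

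MPRIP also has a 3807 nt exon at chr17:17067423-17071229, in frame and present in 1 of 5 spanning coding transcripts. It was included at 8.96, 5.70, 8.13, 11.2, 11.3 and 9.89%, on 2647 to 10975 counts per library. The fourth variable event, a 69 nt exon counted between distant flanks, ranged from 65.1 to 100% on a mean of 38 counts. The other 34 MPRIP events with enough counts were included at over 95% in every library.

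PPP1R12A, the MYPT1 subunit, had its variable exon in the middle of the gene. The 168 nt version was included at 37.5, 46.6, 50.3, 41.1, 52.6 and 56.3%, and the version shortened by the inner acceptor at 25.6, 35.6, 32.7, 28.95, 39.3 and 38.6%. Counted with a flank further downstream, the 168 nt exon was included at 100, 100, 100, 88.98, 90.1 and 91.0%, on a mean of 116 counts. Both versions share the junction on their 3′ side, so these levels overlap and do not add up. The inclusion count of the longer version exceeded that of the shorter by 66 to 130 in each library, which is the excess of reads at its own acceptor. The skipping junction had 98 to 173 counts. The 31 nt exon whose absence gives the leucine zipper isoform had 2 inclusion counts among 1609 in all libraries, with 5 libraries at 0, which allows up to 0.843 to 1.38% for a library at 0. A 25 nt exon just upstream had 5 inclusion counts of 1812. A 75 nt exon lay at 93.7 to 96.9%.

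LIMCH1 had the lowest counts. Its 36 nt exon was included at 25.3, 47.9, 35.5, 55.8, 34.7 and 52.7%, on 115, 226, 256, 27, 12 and 15 counts, so the last 3 values rest on few reads. In RASL-seq 69 of 74 PC3E counts included that exon, above every RNA-seq value. The 84 nt version of the tandem acceptor exon reads at 76.7 to 88.1% inclusion and the 81 nt version at 85.4 to 93.4%, again because of their shared junction. Where that junction is little used, in the event that joins the exon to a later one, the 84 nt version had 0 to 23 inclusion counts and the 81 nt version 9 to 270. In each library the version without the 3 extra bases was thus the more counted one. The other variable LIMCH1 exons stayed at 86.0% or above, but for a 75 nt exon at 0 to 6.58%.

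**Figure D4:**
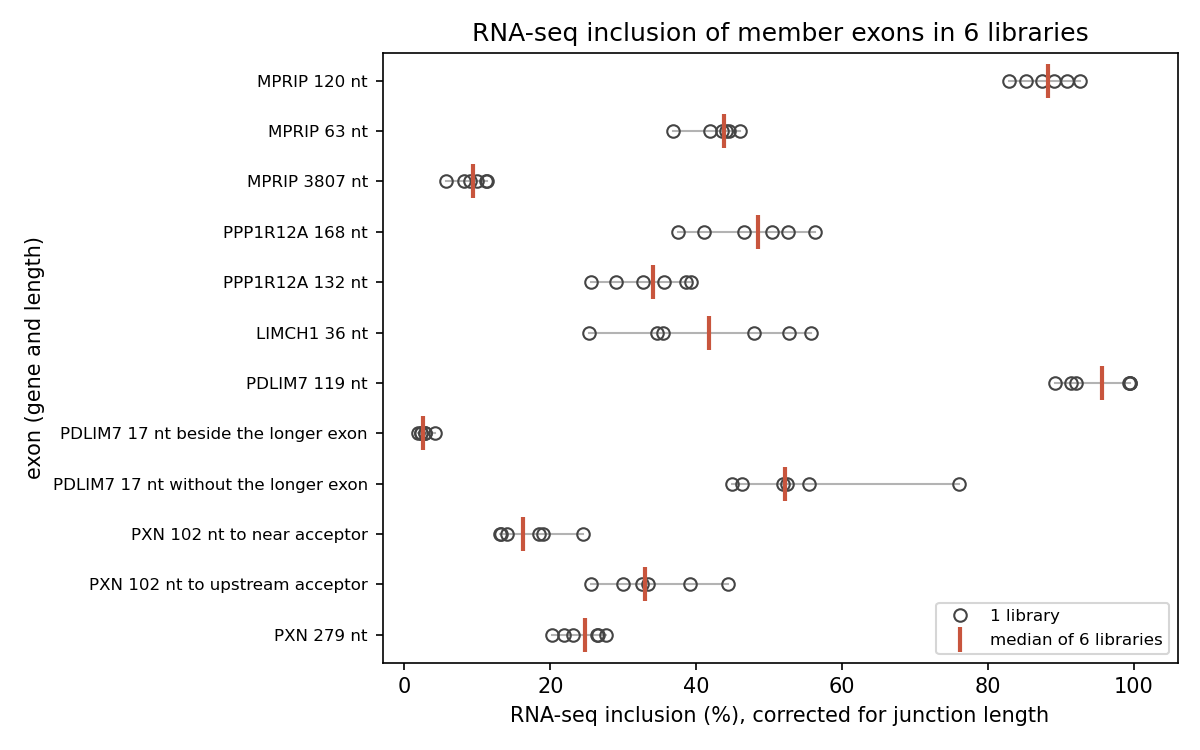
RNA-seq inclusion in percent, corrected for junction length, of the main variable exons of MPRIP, PPP1R12A, LIMCH1, PDLIM7 and PXN, with 1 circle per library and a red tick at the median of 6. The 17 nt exon of PDLIM7 has a median of 2.55% with the longer exon as its upstream flank (beside). With the exon before the longer one as the flank (without), the median is 52.2%.

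PDLIM7, an Enigma family protein with a PDZ domain and LIM domains, had a short exon whose inclusion differed with the upstream flank it was counted against. The 17 nt exon was included at 1.83 to 4.16% with the 119 nt exon as its upstream flank. With the exon before the 119 nt exon as the flank, inclusion of the 17 nt exon was 44.95 to 76.0%. These values rest on 9, 14, 12, 107, 144 and 144 counts. Both events also count the junction on the 3′ side of the 17 nt exon, so neither is strictly conditional on the 119 nt exon. The lowest value of the second kind was above the highest of the first in all 6 libraries. Counted by single junctions, 2, 4, 5, 57, 75 and 59 reads joined the upstream exon to the 17 nt exon and 4, 3, 6, 47, 59 and 74 passed both, so that the 17 nt exon took 33.3 to 57.1% of the reads that skipped the longer one. Since both lengths leave the same remainder, replacing one exon by the other keeps the reading frame downstream, while skipping both does not. Of these 2 junctions and the one to the 119 nt exon, the latter took 77.9 to 99.3% (median 92.1%). Versions of the 119 nt exon with 170 and 189 nt share its 3′ junctions and were counted mostly through them. Past both exons, the 170 nt version had 909, 597, 884, 604, 502 and 937 inclusion counts. The 3′ junction that it shares there with the 119 nt exon had 907, 597, 880, 603, 497 and 927 by itself. The percentages that follow thus do not show that either version was used. With the 17 nt exon as the downstream flank, the 170 nt version was included at 88.9, 70.4, 74.4, 17.99, 10.7 and 17.5% and the 189 nt version at 88.2, 71.4, 71.4, 16.8, 7.98 and 11.3%, on means of 58.3 and 54.7 counts. Past both exons, the 170 nt version was included at 80.97 to 99.1%.

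PXN, the adhesion scaffold paxillin, had the most variable events. As background, the beta and gamma isoforms of paxillin carry different inserts at one position, upstream of the LIM domains. The 3 junctions compared here leave the donor upstream of that position; junctions from it to the 885 nt exon and to a further acceptor were counted far less and are left out of the shares. The junction to the near acceptor of the next exon, which adds no insert, had 1380, 1277, 1736, 3606, 3693 and 2858 counts, or 54.1 to 70.1% of the counts of these 3 junctions (median 65.6%). The junction to an acceptor 144 nt upstream of it had 552, 461, 748, 872, 1041 and 719 counts, or 16.7 to 24.6%. The junction to the 102 nt exon had 620, 227, 554, 663, 731 and 738 counts, or 11.6 to 24.3%. Each of the 6 libraries thus held all 3 junctions, with the one that adds neither insert the most counted. The junction to the 102 nt exon does not tell which acceptor follows that exon. Counted against the upstream acceptor, the exon had 878, 316, 751, 841, 891 and 924 inclusion counts. These exceed the counts of the junction into it in each library, so some reads joined the exon to the upstream acceptor. The 2 inserts were thus not exclusive, and the shares describe junctions only. Both inserts are a multiple of 3 in length.

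**Figure D5:**
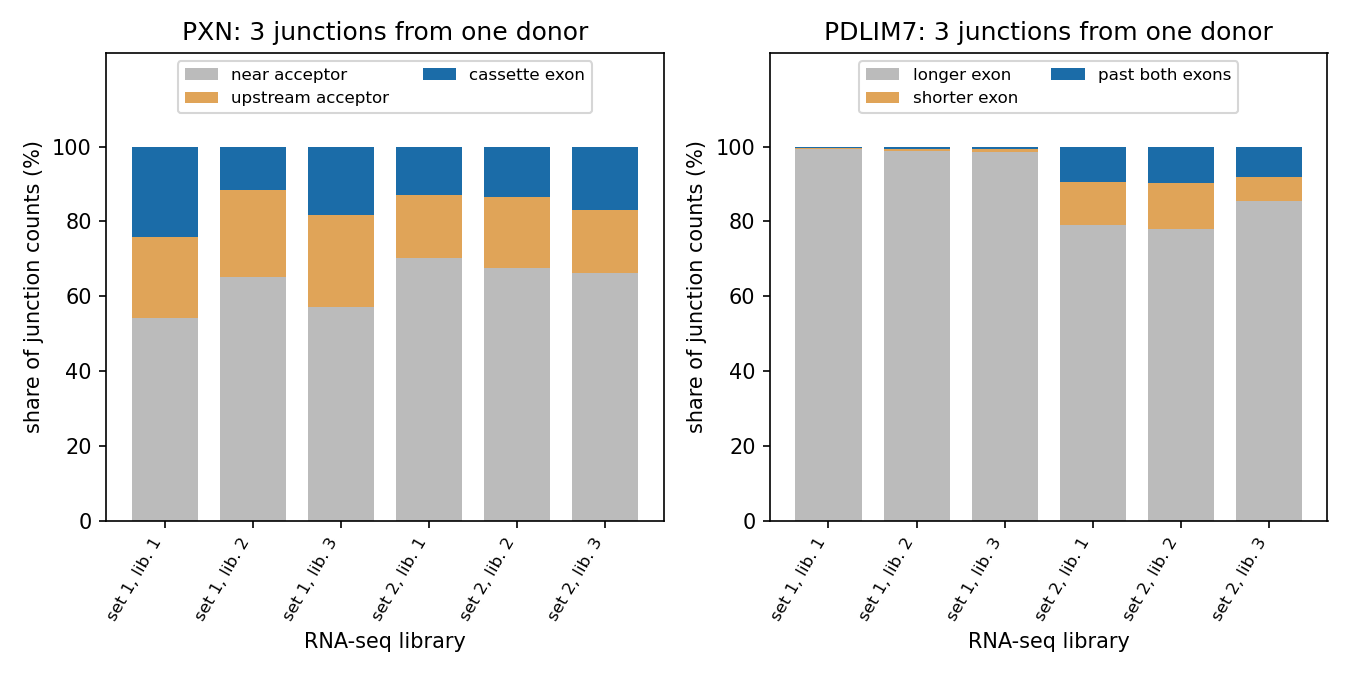
Shares of 3 junctions from one donor, in percent of their summed counts, in PXN (left) and PDLIM7 (right) in each RNA-seq library, in the order of the table's header. In PXN the near acceptor takes 54.1 to 70.1% and the cassette (102 nt) exon 11.6 to 24.3%, and in PDLIM7 the longer (119 nt) exon takes 77.9 to 99.3%.

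As an event, the 102 nt exon read at 13.1 to 24.5% against the near acceptor and at 25.5 to 44.3% against the upstream one, which has fewer skipping reads. A non-coding 279 nt exon upstream in PXN was included at 26.6, 20.2, 27.6, 26.4, 21.9 and 23.2%, a narrow range on 1913 to 3979 counts per library. An 885 nt coding exon had 0.468 to 1.24% inclusion between the main flanks. An 85 nt coding exon read at 92.0 to 100% between 1 pair of flanks, on a mean of 48.7 counts. With a more used upstream flank it read at 1.37 to 2.94%. The remaining variable PXN events involve 844 and 161 nt segments and flanks seldom used together, with means of 32.3 to 648 counts and inclusion from 3.61 to 100%.

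In the other 4 genes nearly all events with enough counts were included at over 95% or under 5% in every library. In ZYX 16 of 19 events were at over 95%, and the single variable event, a 200 nt exon, had a mean of 21.8 counts and a range of 78.9 to 100%. LASP1 skipped its 170 nt exon in RNA-seq too (at most 0.156% inclusion) and held 7 other events at over 99.5%. PDLIM5 had an 18 nt exon at 0 to 3.05% and a 120 nt exon at up to 0.623%. LIMA1 had 5 events at 97.0% or above and 2 exons at up to 2.48%. Its exons differed in depth along the gene: the 142 nt exon near the 5′ end had 91 to 956 inclusion counts and the 108 nt exon further downstream 711 to 1556, over the same effective length, a ratio of 0.128 to 0.688 (median 0.436). The annotation holds LIMA1 transcripts that start between the 2 exons.

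Other genes of these pathways were sparsely covered by RASL-seq. Of 36 LIM domain relatives 4 had tested totals and 1 was higher in GS689, LMO7 (614 ± 104 to 1816 ± 202 CPM, log2 change 1.58, SE 0.15, adjusted p = 2.36e-05), an adhesion protein with a LIM domain; 3 did not pass. Of 36 genes of myosin light chain control, 2 were tested and both were higher: PRKG1, a cyclic GMP-dependent kinase that acts on myosin phosphatase (log2 change 1.75, SE 0.44, adjusted p = 0.0123), and PRKCA, a protein kinase C (0.74, SE 0.19, adjusted p = 0.0124). Of 49 stress fibre and focal adhesion genes 6 were tested, 5 did not pass and PALLD, an actin cross-linker, was lower (511 ± 84.9 to 304 ± 39.0 CPM, log2 change -0.75, SE 0.17, adjusted p = 0.00643). The median log2 changes of the 3 lists were 0.26, 1.25 and -0.07.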

How the data were processed

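RNA of PC3E and GS689.Li was measured by RNA-seq and RASL-seq. Per the labels' protocols, RNA was extracted with Trizol and a stranded Illumina kit was used; how RASL-seq products were counted is not stated. The submitters' processing notes name STAR 2.5.2a, kallisto 0.43.0 and the build hg19, with no role for either tool. The authors deposited one table of raw whole-number counts per assay. A RASL-seq cell holds 2 counts. The first was read as inclusion, because its share followed RNA-seq inclusion (r = 0.87 over 1640 events, as a description) and it equalled the upstream junction's count elsewhere in 51 of 51 pairs of events. Inclusion is that count over both. RNA-seq cells hold 3 counts per numbered set, and per the file headers effective lengths are 101 for skipping and 102 to 202 for inclusion; inclusion was corrected for them. A read can enter several events, so totals of 93842790 to 120853566 are not depth. Columns of per-sample values left unused numbered 0.

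Events were named by structure in GENCODE release 29, which is on another build, and no coordinates were converted: 95.6% of RASL-seq and 95.1% of RNA-seq events matched 1 gene. In RASL-seq, inclusion was tested per event with a quasi-binomial model, dispersions moderated by limma 3.58.1 in R 4.3.3, over events with a mean of at least 10 counts, 1 or more in every library and 10 of the rarer form. Gene totals (both counts summed) were tested with limma-voom after trimmed-mean scaling, over genes with about 10 counts in at least 3 libraries and 15 in all. All p-values are two-sided and Benjamini-Hochberg adjusted over all features. Scripts were tested on simulated data. RNA-seq sets name no line, so no test was run on them. Named were all RASL-seq events of members, RNA-seq events of members averaging 20 or more counts with inclusion of 5 to 95% in at least 1 library, the 3 genes nearest in profile, and genes of the lists with called totals; exon events of the lists are not reported here. Alternatives covered the log2 ratio model, filters, scaling, a replicate block and leaving out each library. The members and lists were chosen with earlier results of these data known.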

Additional observations from a re-analysis of the deposited data

How the results depend on the processing

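The directions of the MPRIP, LIMCH1, ZYX and LASP1 totals held under every scaling, filter and left-out library tried, and the calls of MPRIP, LIMCH1 and ZYX held too; skipping counts alone gave no value for LIMCH1. LASP1 was not called with median-of-ratios scaling (adjusted p = 0.0510, log2 change 0.43), with no filter (0.0514, log2 change 0.43), from skipping counts alone (0.0837, log2 change 0.38), or in 5 of the 6 fits without 1 library. Over the left-out libraries the log2 changes were -1.51 to -1.28 for MPRIP, -3.68 to -3.04 for LIMCH1, 0.93 to 1.46 for ZYX and 0.31 to 0.56 for LASP1 (limma-voom). Called totals numbered 393, with 242 from skipping counts alone, where fewer genes were tested, and 251 to 441 over the left-out libraries, the lowest without GS689 replicate 1. Called events numbered 66, with 22 on the log2 ratio with pseudocount 0.5 and 51 with pseudocount 5. They numbered 4 with no filter and 46 to 86 over the left-out libraries. With no filter 1890 events were tested against 1124, and the cause was not tested. On the log2 ratio with pseudocount 5 the LIMCH1 31 nt exon had an adjusted p of 0.0128 (limma). Its difference of -1.70 points was under the 5 points that a call needed. Differences near 0 changed sign. Over the left-out libraries they were -0.079 to 0.061 points for the MPRIP 114 nt exon and -1.90 to 0.36 for the 63 nt exon. For the LIMCH1 31 nt exon they were -3.15 to 0.11, over the 5 fits in which it was tested. The MPRIP 120 nt exon differed by 8.10 to 13.2 points and passed without PC3E replicate 1 (adjusted p 0.0347 to 0.455 over the left-out libraries).

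The main fits did not take the replicate numbers as pairs. For inclusion, deviations of same-numbered libraries correlated at 0.037, 0.004 and 0.034, and a library correlated best with its own number in 1 of 3 cases. For totals the correlations were 0.27, 0.17 and -0.014, and the own number was best in 2 of 3 cases. These values do not settle whether the numbers pair the samples. With the replicate block 88 events and 465 totals were called, the MPRIP 120 nt exon among them (10.9 points, adjusted p = 0.000530, limma-moderated); it changed no other member's call. RNA-seq inclusion without length correction moved by more than 1 SD (pooled within the sets) for 24 of the 36 named events, and 31 of the 36 averaged 50 or more counts. RNA-seq levels by each gene's most counted event, added after seeing the data, moved by more than 1 SD for 8 of 9 genes. LIMCH1 had only 33 to 46 counts per GS689 library for its 31 nt exon.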

Other observations

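The 2 numbered sets of RNA-seq libraries carry no line in the header, so the following are values by library and no comparison of lines. Summed event counts in CPM of the table fell into separate ranges for 7 of the 9 genes, against 49.97% of 11611 genes with a mean of at least 20 counts. They were 3518, 2541 and 3794 in set 1 and 1793, 1307 and 1460 in set 2 for MPRIP, and 31.9, 69.5 and 56.1 against 7.07, 3.98 and 8.02 for LIMCH1. LIMA1 stood at 54.3, 50.4 and 55.2 against 28.2, 29.2 and 25.1. ZYX stood at 257, 558 and 331 against 716, 1338 and 849, PXN at 302, 204 and 305 against 649, 663 and 546, PPP1R12A at 52.9, 39.1 and 50.6 against 86.7, 77.6 and 64.2, and LASP1 at 115, 105.1 and 160.1 against 183, 187 and 160.6.

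Exon use also fell into separate ranges in some members. Of the 36 variable member events 16 (44.4%) did not overlap between the sets and 10 (27.8%) were more than 5 percentage points apart, against 18.05% and 5.14% of 28353 variable events of the table. The member events share junctions and are not independent. All 10 were versions of the PDLIM7 119 nt exon, PXN events with the 885 nt exon as a flank, or the PPP1R12A 168 nt exon. The share of 27.8% thus rests on few sites. The widest gaps were those of the 170 and 189 nt versions of the PDLIM7 exon beside the 17 nt exon, at 70.4 to 88.9% and 71.4 to 88.2% in set 1 and 10.7 to 17.99% and 7.98 to 16.8% in set 2. Both versions were counted mostly through junctions of the 119 nt exon, so these gaps do not show a change of the versions themselves. The junction that skips them, to the 17 nt exon, had 2, 4 and 5 counts in set 1 and 57, 75 and 59 in set 2. The PDLIM7 119 nt exon took 99.3, 98.7 and 98.6% of the 3 junctions compared in set 1 and 78.9, 77.9 and 85.5% in set 2. Of the 3 PXN junctions compared, the one to the near acceptor took 54.1, 65.0 and 57.1% in set 1 and 70.1, 67.6 and 66.2% in set 2. The one to the upstream acceptor took 21.6, 23.5 and 24.6% and 16.96, 19.0 and 16.7%. For the PXN 102 nt exon the sets overlapped (24.3, 11.6 and 18.2% against 12.9, 13.4 and 17.1%). The ratio of LIMA1 counts at the 142 nt exon to those at the 108 nt exon was 0.476, 0.688 and 0.614 in set 1 and 0.231, 0.396 and 0.128 in set 2. The 75 nt exon of LIMCH1 was at 2.17, 6.58 and 3.60% in set 1 and had 0 inclusion counts in set 2, on 30, 10 and 43 counts.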
